A study of Mus musculus with 16 samples.

Results

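The 10 genes described here encode proteins that work beside heterochromatin protein 1 (HP1): the 3 subunits of the HUSH complex (Mphosph8, Pphln1 and Tasor), the MORC ATPases Morc2a and Morc3, the histone H3.3 loading pair Atrx and Daxx, the HP1-binding zinc finger proteins Adnp and Pogz, and Chaf1a, the large subunit of chromatin assembly factor 1. They were taken by gene symbol from a table of 56748 genes, by no threshold on measured values but with earlier results of these data known. All 10 passed the filter on low counts in every comparison.

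As background, HP1 proteins bind histone H3 methylated at lysine 9 and recruit other silencing factors. HUSH finds newly integrated or intron-poor transcription units, and it brings in the methyltransferase SETDB1 and the ATPase MORC2 to silence them. ATRX and DAXX place histone H3.3 at repeats and telomeres, ADNP joins HP1 to the remodeller CHD4, and CHAF1A carries new histones H3 and H4 to replicating DNA.

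The samples were memory T cells, sorted from mouse spleen as CD4+CD25low/-CD62L-CD44high, in 4 groups of 4. HP1α KO mice came from a floxed Cbx5 allele that had been excised with CMV-cre, a transgene active in every tissue, and were compared with WT littermates. HP1γ KO mice were homozygous for a floxed Cbx3 allele and carried Cd4-cre, which acts in T cells, while their WT littermates were homozygous for the same floxed allele without Cre. Cre and the loss of HP1γ therefore cannot be told apart in the second line, and both lines were kept on a mixed 129/Sv and C57BL/6 background. Per the methods of the study, littermates were matched for sex and aged 6 to 12 weeks. Its reporting summary states that males were used, to avoid effects of X chromosome inactivation on the sequencing. The labels do not say that replicates were separate animals, so the p-values measure only the spread between these samples. A group is named below by its line and genotype, so that HP1α WT means the WT littermates of the HP1α line.

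Each sample held between 26694045 and 40199637 estimated counts. Levels of 1 gene across samples are given as CPM, counts scaled to the size of each library after TMM normalization, and levels of different genes are compared as TPM, which also adjust for transcript length. Of the 10 markers of CD4 memory T cells, none was at 0, and their sum lay between 4820 and 5560 CPM. The 2 CD8 T cell genes summed to 5.09 to 18.5 CPM, the 10 B cell genes to 309 to 787 CPM and the 4 globin genes to 16.3 to 1180 CPM. The targeted genes were measured over whole transcripts, in which reads outside the deleted part still count. Mean CPM of Cbx5 was 27.1 ± 2.77 (SD, n = 4) for HP1α KO and 40.3 ± 9.28 for HP1α WT (edgeR log2 fold change -0.58, adjusted p = 0.946), and the groups did not overlap. Cbx3 was at 47.5 ± 1.98 CPM in HP1γ KO and 84.5 ± 8.66 CPM in HP1γ WT (-0.82, adjusted p = 0.0015), again with no overlap. For Cbx5, heterozygous carriers of the excised allele were intercrossed, so that every cell of an HP1α KO mouse carried it. The study reported that naive CD4+ T cells of these mice held no HP1α protein. For the other genes, fewer cells with a transcript and less RNA per cell cannot be told apart in such bulk samples.

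To show where transcription of these genes begins, the 150 bases before the start of the canonical GENCODE transcript on GRCm39 are printed for 5 of them. Mphosph8 and Tasor are the HUSH subunits with the largest values between the WT groups, Morc3 is the gene called between the lines, and Atrx and Pogz are 2 of the 3 with an unadjusted p under 0.05 in HP1γ KO. Capitals mark CCAAT or GGGCGG, the letters bound by NFY and SP1, read on either strand. The windows of Morc3, Atrx and Pogz overlap no annotated exon, and those of Mphosph8 and Tasor overlap an exon of a lncRNA (Gm62612 and Gm34702).
Mphosph8 (chr14:56905516-56905665, plus strand): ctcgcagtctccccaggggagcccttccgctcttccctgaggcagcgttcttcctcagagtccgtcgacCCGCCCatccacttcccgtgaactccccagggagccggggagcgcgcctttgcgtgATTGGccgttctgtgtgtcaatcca
Tasor (chr14:27150598-27150747, plus strand): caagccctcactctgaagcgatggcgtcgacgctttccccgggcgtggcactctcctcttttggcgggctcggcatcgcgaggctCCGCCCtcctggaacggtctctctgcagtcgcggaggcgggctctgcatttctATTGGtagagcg
Morc3 (chr16:93628859-93629008, plus strand): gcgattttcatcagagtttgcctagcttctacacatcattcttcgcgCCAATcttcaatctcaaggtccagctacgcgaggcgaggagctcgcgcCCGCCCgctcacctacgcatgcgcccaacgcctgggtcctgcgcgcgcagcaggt
Atrx (chrX:104973015-104973164, minus strand): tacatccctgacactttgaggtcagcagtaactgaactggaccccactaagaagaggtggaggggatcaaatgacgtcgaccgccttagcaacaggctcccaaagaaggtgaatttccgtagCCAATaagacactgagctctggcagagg
Pogz (chr3:94744542-94744691, plus strand): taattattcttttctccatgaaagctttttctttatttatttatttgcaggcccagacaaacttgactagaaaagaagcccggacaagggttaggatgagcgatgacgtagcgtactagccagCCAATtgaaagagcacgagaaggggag

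In the 250 bases before the start, CCAAT stood in 8 of the 10 promoters, all but those of Pphln1 and Adnp, against 36.3% of the 12567 promoters of tested protein-coding genes. It lay 12 bases before the start in Tasor, 25 in Mphosph8, 27 in Pogz, 28 in Atrx and 39 in Morc2a, counted to its first base. In Morc3, Chaf1a and Daxx it lay farther away, at 103, 191 and 204 bases, and Atrx had another match at 209. GGGCGG stood in 5 of 10 (Mphosph8, Tasor, Morc2a, Morc3 and Daxx), against 49.0% of all promoters. The other letters searched on both strands were CCGGAAGT for ETS factors, present in Daxx alone of the 10 and in 4.0% of promoters, and TTTGGCGC and TTTCCCGC for E2F, AAGATGGCG for YY1 and TGACGTCA for CRE. These last 4 stood in none of the 10 windows and in 0.7%, 1.6%, 0.9% and 2.1% of promoters. No CCAAT overlapped a GGGCGG in the 10 windows. The median GC content was 63.0% for the 10 and 56.4% for all promoters. These are matches of letters in a list of 10 genes and were not tested.

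All 10 genes were expressed in memory CD4+ T cells, over a range that ran from Atrx to Chaf1a. On the TPM scale, Atrx was at 115 ± 12.2 (mean and SD of 16 samples) and Daxx at 68.0 ± 10.5, and the ranges of these genes overlapped neither each other nor that of any other member. Adnp (38.6 ± 4.91 TPM), Pogz (36.7 ± 2.93), Morc3 (34.3 ± 6.41) and Morc2a (31.8 ± 3.69) followed, and neighbours in this order had overlapping ranges and exchanged places between samples. Pphln1 was at 25.8 ± 2.21 TPM, below Morc2a in 16 of 16 samples although the ranges of the pair overlapped. The other HUSH subunits were lower, Mphosph8 at 13.3 ± 2.53 and Tasor at 7.72 ± 1.26 TPM, and Chaf1a was lowest at 4.17 ± 0.803 TPM. Among the 15779 genes tested in at least 1 comparison, these mean levels lay between percentile 36.3 (Chaf1a) and percentile 91.3 (Atrx). TPM depend on the transcript length assigned to each gene, and so does the order of the genes. The canonical transcripts of Atrx and Daxx are 10370 and 2581 nt long, and their group means were 234 to 299 and 73.7 to 96.8 CPM. With these lengths the order of this pair could differ, which was not computed.

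**Figure D1:**
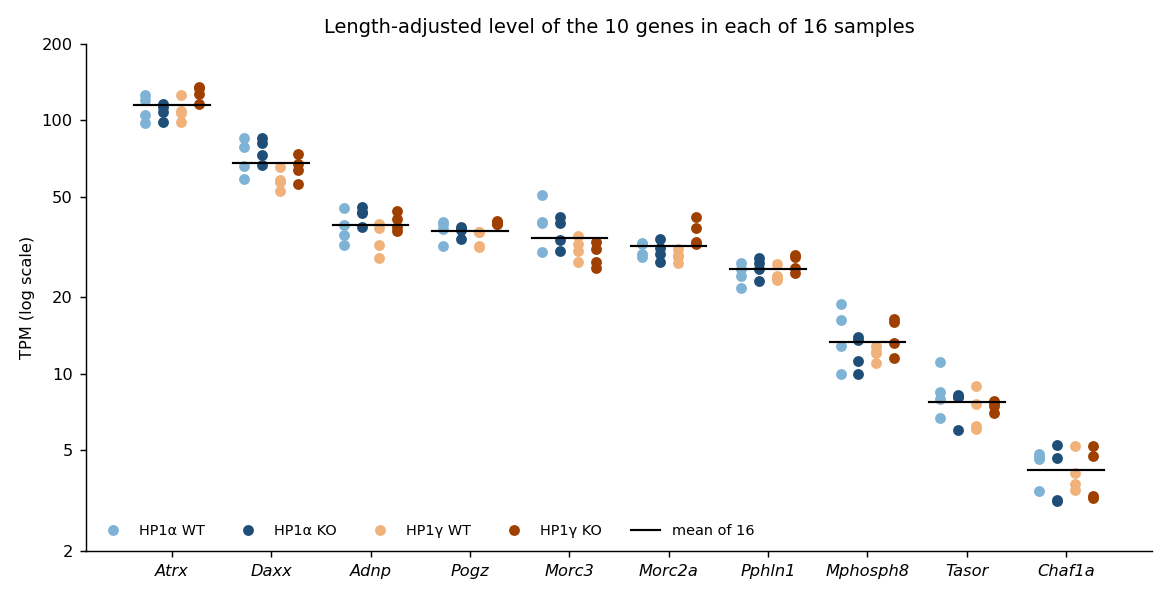
TPM on a log axis for the 10 genes, ordered by mean, with 1 point per sample coloured by group and a black line at the mean of 16 samples. Atrx (98 to 135 TPM) and Daxx (52.4 to 85.4 TPM) stand above the other genes, and Chaf1a (3.14 to 5.25 TPM) lies below them.

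On the TPM scale the HUSH subunits were not at equal levels, and the ratios below rest on the transcript lengths behind the TPM. Pphln1, which encodes periphilin, exceeded Tasor in every sample, with a TPM ratio of 3.41 ± 0.511 (n = 16, range 2.47 to 4.35). In CPM, without adjustment for length, group means were 28.8 to 30.0 for Pphln1 and 31.9 to 39.9 for Tasor. Their canonical transcripts are 3797 and 7633 nt long. Mphosph8, the chromodomain subunit that reads H3K9 methylation, exceeded the scaffold Tasor by a ratio of 1.73 ± 0.257 (1.35 to 2.21). The TPM ratio of Atrx to Daxx was 1.43 ± 0.132 in HP1α KO, 1.57 ± 0.207 in HP1α WT, 1.98 ± 0.302 in HP1γ KO and 1.90 ± 0.13 in HP1γ WT (n = 4 each), ratios that were not tested. Single samples lay between 1.34 and 1.81 in the HP1α line and between 1.72 and 2.4 in the HP1γ line, ranges that met only at their edges.

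The loss of HP1α was compared first. None of the 10 genes differed between HP1α KO and HP1α WT at an adjusted p under 0.05 with edgeR's quasi-likelihood test, and of the 14881 genes tested 0.0% were called. At an unadjusted p under 0.05 the count was 0 of 10, against 4.27% of all genes. With samples matched by replicate number in the fit, it was 2 of 10 (Atrx and Tasor), against 6.89% of all genes. Neither was called. No member had groups that did not overlap, against 2.96% of all genes. The log2 fold changes ran from -0.25 (Chaf1a) to 0.13 (Adnp) with a median of -0.05, against 0.0 over all genes tested. The 95% intervals of the 10 lay between -0.65 and 0.34, so that each left out a change of 1 on the log2 scale in either direction. DESeq2 called none of the 10 either.

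The loss of HP1γ gave small positive values for Atrx, Morc2a and Pogz that stayed above the adjusted threshold. None of the 10 was called, against 0.327% of 14975 genes (49 genes, Cbx3 among them). At an unadjusted p under 0.05 there were 3 of 10, against 11.9% of all genes. All 3 were higher in KO, against 6.34% of all genes in that direction. DESeq2 called none of the 10. The log2 fold changes ran from -0.19 (Chaf1a) to 0.20 (Morc2a) with a median of 0.06, against 0.0 over all genes, and the intervals lay between -0.42 and 0.36. As an interaction, the 2 knockout effects differed for none of the 10 and for 0.0507% of 15776 genes, with an unadjusted p under 0.05 for 1 member, Atrx, against 9.58% of all genes.

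Between the WT groups of the 2 lines, 1 of the 10 was called, Morc3, which was higher in HP1α WT. In this comparison 12.8% of 14804 genes were called and 4.55% were called and higher in HP1α WT. The log2 fold change was above 0 for 9 of the 10, all but Atrx, against 52.1% of all genes. An unadjusted p under 0.05 was found for Morc3, Daxx and Mphosph8, 3 of 10 against 29.9% of all genes. No member had WT groups that did not overlap, against 19.5% of all genes. The lines differ in alleles and Cre history, which cannot be told apart from each other or from any batch of the line. The 10 B cell markers, none of them at 0, summed to 393 to 567 CPM in HP1α WT and 309 to 369 CPM in HP1γ WT, and the memory T cell markers to 4820 to 5100 and 5130 to 5560 CPM. The part of this in the differences between lines was not tested.

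**Figure D2:**
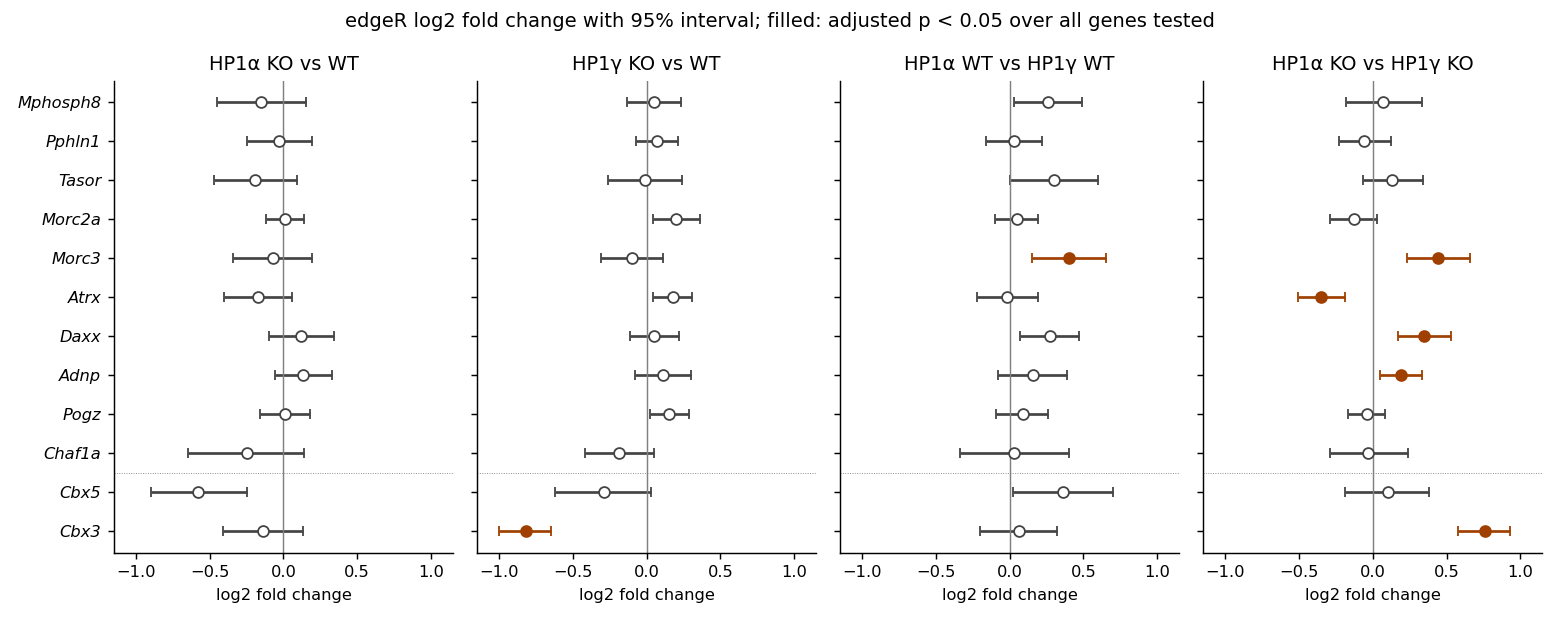
edgeR log2 fold change (points) with its 95% interval (bars) for the 10 genes and, under the dotted line, for Cbx5 and Cbx3, in 4 comparisons of 4 samples against 4. Filled points have an adjusted p under 0.05 over all genes, which holds for none of the 10 in either KO comparison, for Morc3 between WT groups, and for Morc3, Atrx, Daxx and Adnp between KO groups, where the value of Adnp changes sign once the overlapping gene Gm20716 is added.

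The HUSH subunits were compared next. Mphosph8 (chromosome 14, 56905666 to 56935542, plus strand, GRCm39) was at 23.4, 22.4, 17.5 and 18 CPM in HP1α KO and at 24.1, 26.6, 18.5 and 21.0 CPM in HP1α WT. In the HP1γ line it was at 21.5, 19.7, 19.0 and 17.2 CPM in KO and at 18.9, 18.7, 18.3 and 19.4 CPM in WT. The KO and WT values overlapped in both lines, and the widest and the narrowest spread were those of the WT groups, with a coefficient of variation of 15.7% in HP1α WT and 2.33% in HP1γ WT. The log2 fold change was -0.15 (SE 0.134) in HP1α KO and 0.05 (SE 0.0822) in HP1γ KO. Between the WT groups it was 0.26 (SE 0.105, adjusted p = 0.126), and without HP1α WT 3 it was 0.34 (adjusted p = 0.0459).

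Tasor (chromosome 14, 27150748 to 27205512, plus strand) ranged from 28.9 to 37.7 CPM in HP1α KO and from 33.2 to 49.5 CPM in HP1α WT, with a log2 fold change of -0.19 (SE 0.127). In the HP1γ line the ranges were 28.8 to 33.9 CPM in KO and 27 to 38.8 CPM in WT (-0.01, SE 0.114), and between the WT groups the value was 0.30 (SE 0.137, adjusted p = 0.171). Pphln1 (chromosome 15, 93296209 to 93389810, plus strand) was the steadiest of the 3 subunits, with group means between 28.8 and 30.0 CPM and log2 fold changes of -0.03, 0.07 and 0.03 in the HP1α, HP1γ and WT comparisons. No HUSH subunit was called in any of these comparisons. On the opposite strand, exons of Mphosph8 overlap those of Gm16973 by 992 bases and exons of Tasor those of Ccdc66 by 2507 bases. The library kit keeps strand, but the strand setting of the counting is not given in the sources used here.

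**Figure D3:**
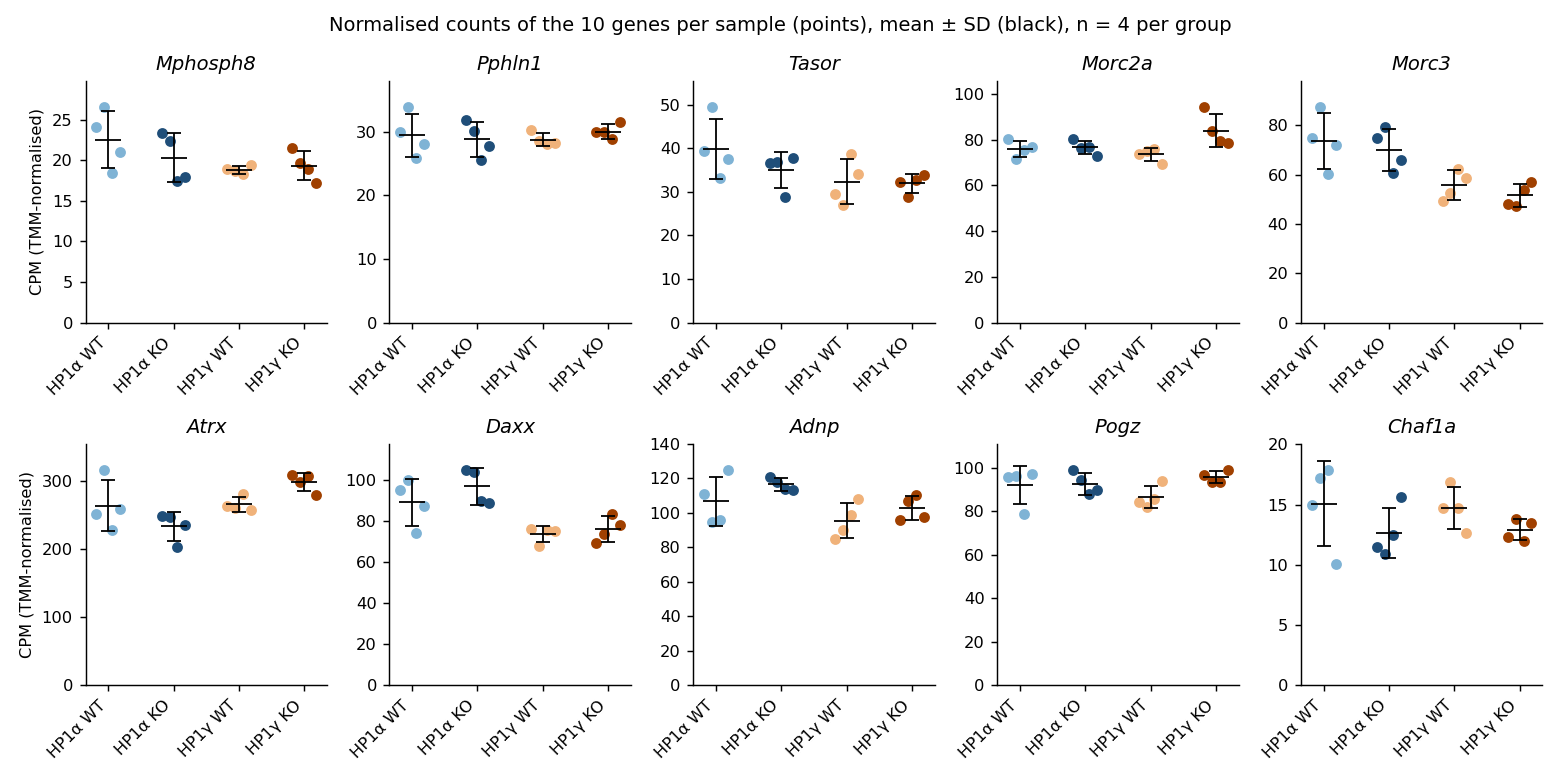
CPM of each of the 10 genes in every sample (points) with mean and SD (black, n = 4) for the WT and KO groups of both lines, on axes that start at 0. The HP1α and HP1γ groups separate most for Morc3, while the Morc2a values of HP1γ KO (78.5 to 94.3 CPM) lie above those of HP1γ WT (69.3 to 75.9 CPM).

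Morc2a, the ATPase that HUSH recruits to compact silenced chromatin (chromosome 11, 3598782 to 3641352, plus strand), was at 94.3, 83.7, 79.2 and 78.5 CPM in HP1γ KO and at 73.9, 74.9, 75.9 and 69.3 CPM in HP1γ WT. All 4 KO samples were above all 4 WT samples, a pattern shown by 3.22% of all genes tested. In either direction, 7.11% had groups that did not overlap. The means were 83.9 ± 7.3 and 73.5 ± 2.93 CPM (log2 fold change 0.20, SE 0.0733, 95% interval 0.04 to 0.36), the adjusted p of edgeR was 0.36, and over all other settings tried it lay between 0.197 and 0.617. The exact permutation test, two-sided, gave p = 0.0286, the smallest that 4 samples against 4 allow and the value of every gene without overlap. In the HP1α line the value was 0.01 (SE 0.0571), with an interval of -0.12 to 0.14 that was narrow beside those of the other members. The difference between the knockout effects was -0.18 (95% interval -0.37 to 0.01, adjusted p = 0.539). Exons of Morc2a overlap exons of Tug1 and Osbp2 on the other strand by 892 and 632 bases.

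Morc3, an ATPase with a CW domain that reads histone H3 and is known to hold back endogenous retroviruses and interferon (chromosome 16, 93629009 to 93672979, plus strand), was at 74.9, 87.5, 60.1 and 72.1 CPM in HP1α WT and at 49.2, 52.5, 62.4 and 58.8 CPM in HP1γ WT. HP1α WT 3 lay inside the HP1γ WT range, and the other 3 lay above it. The means were 73.6 ± 11.2 and 55.7 ± 5.96 CPM, a 1.32-fold difference (log2 0.40, SE 0.114, 95% interval 0.15 to 0.65, edgeR adjusted p = 0.0446). The exact permutation test, two-sided, gave p = 0.0571. The call was lost in 6 of the 8 fits that left out 1 WT sample, with an adjusted p of 0.115, 0.101 and 0.0858 without HP1α WT 1, 2 and 4, and of 0.13, 0.126 and 0.055 without HP1γ WT 1, 2 and 4. It was kept without HP1α WT 3 (0.0199) and without HP1γ WT 3 (0.0417), and lost on TPM (limma on log2(TPM + 1), 0.32, adjusted p = 0.179).

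The KO groups of the 2 lines gave the same direction for Morc3, in a comparison chosen after seeing the data. They share no sample with the WT groups but are littermates from the same lines, so that this is not an independent repeat. Of all calls between WT groups, 81.6% recurred in the same direction between KO groups. Morc3 was at 74.8, 79.3, 60.5 and 65.8 CPM in HP1α KO and at 48.0, 47.2, 53.9 and 57.2 CPM in HP1γ KO, with no overlap (log2 0.44, SE 0.0968, edgeR adjusted p = 0.00743). Between these KO groups 32.8% of 15020 genes were called and 32.3% did not overlap, and the B cell markers summed to 445 to 787 CPM in HP1α KO and 320 to 425 CPM in HP1γ KO. Within lines, KO and WT overlapped for Morc3 and the log2 fold changes were -0.07 (SE 0.119) in HP1α KO and -0.10 (SE 0.0948) in HP1γ KO. No gene shares a stretch of 150 nt or more with Morc3 at 98% identity.

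Atrx, the SWI/SNF-type remodeller of the H3.3 loading pair (chromosome X, 104841131 to 104973014, minus strand), was at 309, 299, 308 and 279 CPM in HP1γ KO and at 263, 261, 281 and 258 CPM in HP1γ WT. The highest WT sample was just above the lowest KO sample. The means were 299 ± 13.8 and 266 ± 10.6 CPM (log2 0.18, SE 0.0603, 95% interval 0.04 to 0.31, edgeR adjusted p = 0.34). In the HP1α line Atrx was at 249, 247, 203 and 236 CPM in KO and at 252, 317, 228 and 259 CPM in WT (-0.17, SE 0.103, adjusted p = 0.946). The 2 knockout effects thus had opposite signs, and their difference was -0.34 (SE 0.123, 95% interval -0.60 to -0.08, adjusted p = 0.44). The WT groups were close, at 264 ± 37.8 and 266 ± 10.6 CPM (-0.02, SE 0.0908), while the KO groups did not overlap (-0.35, SE 0.0733, edgeR adjusted p = 0.00631). The 4 globin genes summed to 80.9 to 1180 CPM in HP1γ KO and 45.1 to 519 CPM in HP1γ WT, and their part was not tested.

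Daxx, the H3.3 chaperone that binds ATRX (chromosome 17, 34128384 to 34134564, plus strand), was at 94.9, 100, 73.9 and 87.5 CPM in HP1α WT and at 76.3, 67.8, 75.8 and 75.1 CPM in HP1γ WT. The groups overlapped through HP1α WT 3. The log2 difference was 0.27 (SE 0.0908, 95% interval 0.07 to 0.47, edgeR adjusted p = 0.0741), and it passed the threshold with DESeq2 (0.27, adjusted p = 0.0458) and without HP1α WT 3 (0.35, adjusted p = 0.0208). On simulated counts for this comparison with 200 genes changed 2-fold, 20.6% of the DESeq2 calls were false, against 5.9% with edgeR. These shares depend on the number of changed genes and do not carry over to the data, where edgeR called 1896 genes. Between the KO groups Daxx was at 88.7 to 105 CPM in HP1α KO and 69.2 to 83.5 CPM in HP1γ KO, without overlap (0.35, SE 0.0825, edgeR adjusted p = 0.0104). The KO effects within lines were 0.12 (SE 0.0998) and 0.05 (SE 0.0726). Daxx was thus higher and Atrx lower in HP1α KO than in HP1γ KO, groups between which 32.8% of all genes were called. Between the WT groups neither was called, but the Daxx value there had the same sign and a similar size. The difference between the knockout effects on Daxx was 0.07 (SE 0.129, 95% interval -0.20 to 0.35, adjusted p = 0.914).

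Adnp encodes the zinc finger protein of the ChAHP complex, in which HP1 and CHD4 are the partners (chromosome 2, 168021912 to 168049222, minus strand), and its count depended on the overlapping gene Gm20716. Exons of Gm20716 overlap those of Adnp on the same strand by 4393 bases, and the transcripts share a stretch of 4402 nt. Gm20716 was listed at 0 in all 4 samples of HP1α KO and in HP1α WT 4, and took between 7.94% and 34.7% of the summed level of both genes in the other 11 samples. Adnp alone was at 121, 118, 114 and 113 CPM in HP1α KO and at 111, 94.5, 95.6 and 125 CPM in HP1α WT (log2 0.13, SE 0.0878, edgeR adjusted p = 0.946). Added together, both genes were at 117 ± 3.51 CPM in HP1α KO and 126 ± 13.9 CPM in HP1α WT (-0.11, SE 0.0765, adjusted p = 0.946), a value of the opposite sign.

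In HP1γ KO and HP1γ WT, Adnp alone was at 103 ± 6.92 and 95.3 ± 10.1 CPM (0.11, SE 0.0855), and the sum at 126 ± 7.84 and 122 ± 5.12 CPM (0.06, SE 0.0649). Between the WT groups the value was 0.16 (SE 0.108) for Adnp and 0.04 (SE 0.0785) for the sum. Between the KO groups Adnp alone was higher in HP1α KO, with no overlap (0.19, SE 0.0633, edgeR adjusted p = 0.0443), and the sum was lower there, with no call (-0.11, SE 0.0611, adjusted p = 0.193). The direction of Adnp in the HP1α line and between KO groups therefore depended on whether the counts of Gm20716 were added. The fit with summed counts was chosen after seeing the data.

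**Figure D4:**
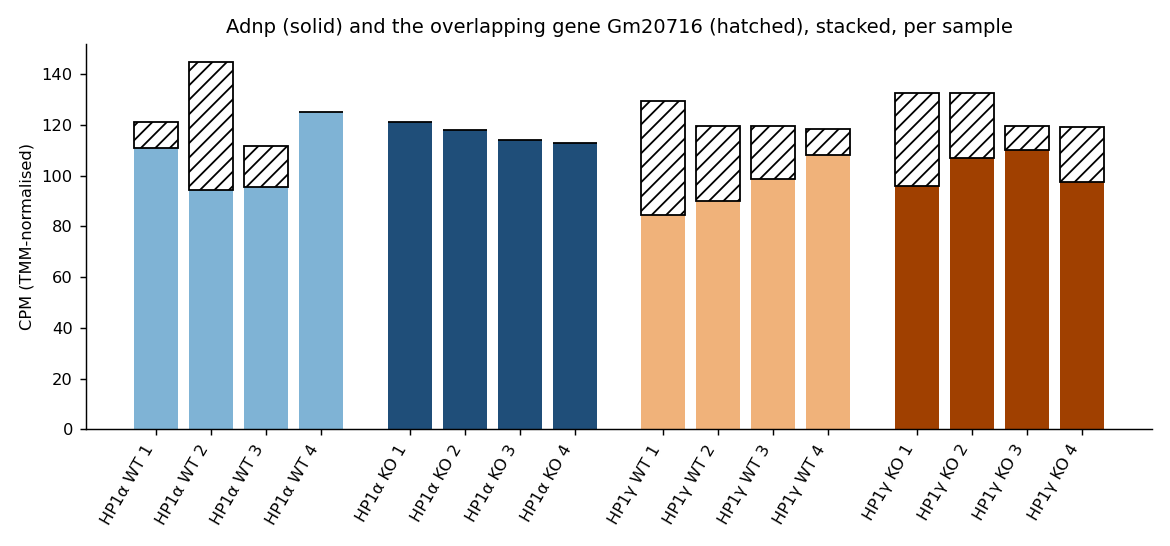
CPM of Adnp (solid bars, coloured by group) and of Gm20716 (hatched), stacked for each of the 16 samples. Gm20716 is at 0 in the 4 samples of HP1α KO and in HP1α WT 4, and the stacked height (112 to 145 CPM) varies less between groups than the solid part.

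Pogz, a zinc finger protein that binds HP1 and takes part in mitotic chromosome release (chromosome 3, 94744692 to 94789637, plus strand), was at 96.7, 93.3, 93.6 and 99.2 CPM in HP1γ KO and at 84.3, 82.0, 85.9 and 93.9 CPM in HP1γ WT. HP1γ WT 4 was above the 2 lowest KO samples, and the other 3 WT samples lay below all 4. The means were 95.7 ± 2.79 and 86.5 ± 5.17 CPM (log2 0.15, SE 0.0618, 95% interval 0.02 to 0.29, edgeR adjusted p = 0.384). In the HP1α line the means were 92.7 ± 4.98 and 92.1 ± 8.71 CPM (0.01, SE 0.077). The difference between the knockout effects was -0.14 (SE 0.098, adjusted p = 0.707).

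Chaf1a, the member that serves DNA replication (chromosome 17, 56347303 to 56379289, plus strand), had the lowest counts of the 10, between 319 and 682 per sample. It was at 11.5, 10.9, 12.5 and 15.6 CPM in HP1α KO and at 15.0, 17.2, 17.9 and 10.1 CPM in HP1α WT (log2 -0.25, SE 0.177, adjusted p = 0.946). In HP1γ KO it was at 12.3, 13.8, 12 and 13.5 CPM and in HP1γ WT at 14.7, 16.9, 14.7 and 12.6 CPM (-0.19, SE 0.105, adjusted p = 0.507). KO was lower on average in both lines and the groups overlapped in both. The summed level of 13 cell cycle genes, such as Mki67, Top2a and the Mcm genes, was 959 to 1040 CPM in HP1γ KO and 1040 to 1240 CPM in HP1γ WT (exact permutation test, two-sided, p = 0.0286), and 832 to 1040 and 907 to 1200 CPM in HP1α KO and WT (exact p = 0.2). Its part in the value of Chaf1a was not tested. Exons of Chaf1a overlap exons of Ubxn6 on the other strand by 4648 bases, and the strand setting of the counting was not given.

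Within groups, Chaf1a was higher in samples in which these cell cycle genes were higher. With group means subtracted, Pearson's r over the 16 samples was 0.90 (permutation p = 0.00014) and Spearman's rho 0.80 (permutation p = 0.00134), and r was 0.86 without the 2 samples farthest from the median. This was the sole relation of its kind computed with the cell cycle sum.

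**Figure D5:**
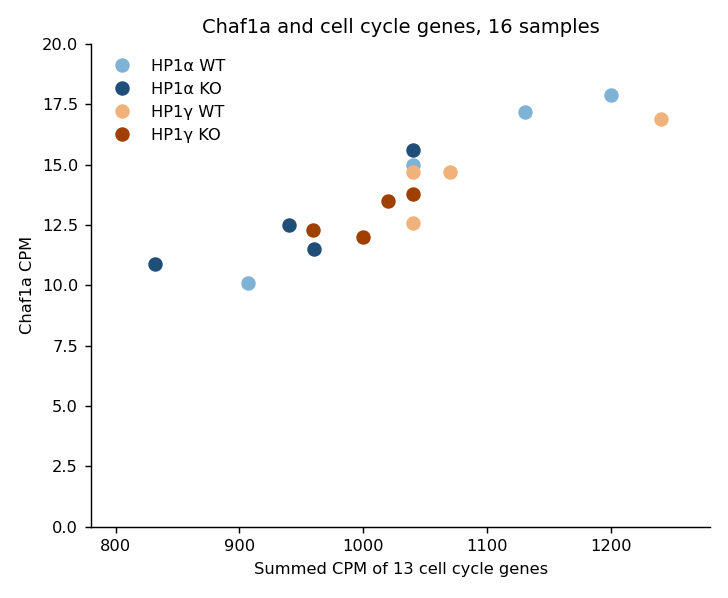
CPM of Chaf1a (y axis, from 0) against the summed CPM of 13 cell cycle genes (x axis, which does not start at 0), with 1 point per sample coloured by group. Samples with a higher sum have a higher Chaf1a level, from HP1α KO 2 (832 and 10.9 CPM) and HP1α WT 4 (907 and 10.1 CPM) to HP1α WT 3 (1200 and 17.9 CPM) and HP1γ WT 2 (1240 and 16.9 CPM).

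Among the 10 genes themselves, 45 pairs were compared over 16 samples after the group means were subtracted, and the median r was 0.31, with 27 pairs above 0. The strongest pair was Tasor and Morc3 (r = 0.85, permutation p = 0.00079, adjusted over 45 pairs 0.0355), with a rho of 0.81 (p = 0.00185, adjusted 0.0832) and an r of 0.78 without the 2 samples farthest from the median of Tasor. It was the only pair with an adjusted p under 0.05 by r, and none had one by rho. The lowest r was that of Adnp and Chaf1a (-0.74, p = 0.00473, adjusted 0.0566, rho -0.58, p = 0.0262), for which the split with Gm20716 applies. Samples shared many of the extremes: within their groups, HP1α WT 2 was highest for 6 of the 10 genes and HP1α WT 3 lowest for 7, HP1α KO 1 was highest for 7 and HP1α KO 3 lowest for 6.

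The gene most like a member in its deviations within groups, out of 15775, is given for 9 of the 10 as a description over the 16 samples. For Morc3 it was the interferon-inducible gene Ifi206 (r = 0.97), and for Chaf1a the mitotic kinesin Kif11 (0.93). For the HUSH subunits it was Nol8 (Mphosph8, 0.93), Rab18 (Pphln1, 0.95) and Ap5m1 (Tasor, 0.94). The others were Rbbp6 for Morc2a (0.91), Pign for Atrx (0.95), Upf2 for Daxx (0.91) and Itpr3 for Adnp (0.93).

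A wider list of 45 partner and pathway genes was read from the same fits, of which 42 were tested. Atf7ip2, Morc2b and Morc4 held at most 3 counts in any sample and were not tested. None of the 42 was called in HP1α KO, in HP1γ KO or for the difference between the knockout effects, and the median log2 fold changes were -0.02, -0.01 and -0.03, against 0.0 over all genes in each. In HP1α KO, genes with the smallest unadjusted p included the DNA-binding protein Dek (-0.31) and the HP1-binding factor Lrif1 (-0.39), both with an adjusted p of 0.946. In HP1γ KO they belonged to Zfp462 (2.21), Adnp2 (-0.29, adjusted p = 0.359) and the H3.3 chaperone subunit Ubn1 (0.21, adjusted p = 0.401). For the difference between the knockout effects they belonged to Zfp462 (-3.27), Tasor2 (-0.26, adjusted p = 0.498) and Nipbl (-0.19, adjusted p = 0.619).

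Zfp462, a zinc finger protein that binds HP1 and H3K9 methyltransferases, was at 1.33, 1.80, 2.65 and 1.69 CPM in HP1γ KO and at 0.227, 0.178, 0.699 and 0.517 CPM in HP1γ WT, without overlap. These levels rested on 35 to 81 counts per KO sample and 7 to 23 counts per WT sample. At 0.309 CPM, the limit of the count filter for 4 samples, were all 4 KO samples but 2 of the 4 WT samples, so that Zfp462 was tested in this comparison through the group where it is high. The log2 fold change of 2.21 (SE 0.425, 95% interval 1.27 to 3.15) had an edgeR adjusted p of 0.0819. It was 0.000115 with DESeq2, 0.0346 with no filter on low counts and 0.0321 with all 16 samples in 1 fit, and lay between 0.0568 and 0.221 when 1 sample was left out. With at least 10 counts in every sample and in both limma fits with a TPM filter Zfp462 was left out and had no value. On simulated counts with 200 genes changed 2-fold, 17.6% of the DESeq2 calls were false in the HP1γ comparison and 14.8% for the difference. With edgeR the shares were 5.4% and 4.3%. They depend on the number of changed genes and do not carry over to the data. In the HP1α line Zfp462 was at 0.103 to 0.382 CPM in KO and 0.302 to 0.758 CPM in WT, on 4 to 24 counts per sample (log2 fold change -1.07, SE 0.449, edgeR adjusted p = 0.946). In the fit for the difference between the knockout effects, 10 of the 16 samples were at the limit of the count filter. The difference joins these 2 values of opposite sign, both on low counts. It had an adjusted p of 0.116 with edgeR and 0.000887 with DESeq2.

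Between the WT groups 12 of the 42 were called, 6 higher and 6 lower in HP1α WT, against 12.8% of all genes tested. In the HUSH and SETDB1 arm, the methyltransferase gene Setdb1 was at 62.6 ± 3.3 CPM in HP1α WT and 48.8 ± 4.68 CPM in HP1γ WT (log2 0.36, edgeR adjusted p = 0.0214), and its partner Atf7ip at 267 ± 14 and 204 ± 31.7 CPM (0.39, adjusted p = 0.0358), neither with overlap. The others higher in HP1α WT were Senp7 (0.59), Mis12 (0.59), Sp100 (0.31) and Lrwd1 (0.26). Lower in HP1α WT were the histone chaperone genes Ubn1 (-0.35) and Nasp (-0.40), the H3.3 gene H3f3b (-0.46), the POGZ partner Champ1 (-0.46), the cohesin loader Nipbl (-0.28) and the origin recognition gene Orc1 (-1.36, 4.55 ± 1.89 against 11.6 ± 3.75 CPM). Of these 12 genes, 11 were also called in the same direction between the KO groups (91.7%), all but Atf7ip. Between the KO groups 21 of the 42 were called, against 32.8% of 15020 genes. Of these 21, 52.4% were among the 12, against 31.4% of the calls between KO groups over all genes. Over all genes, 81.6% of the calls between WT groups were called in the same direction between KO groups. The count between WT groups was 0 without HP1α WT 1, HP1γ WT 1 or HP1γ WT 2, and it was 5 without HP1α WT 2 and 4 without HP1α WT 4. Each of the 12 calls was lost under at least 4 of the 18 alternatives.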

How the data were processed

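Stranded mRNA libraries (paired reads, 150 bp) of 16 samples were grouped by the submitters' titles and genotype labels. One label describes cell transfer, contrary to the study's methods, and was ignored. The authors used Trim Galore, STAR (GRCm39) and Salmon, and deposited unnormalized estimated counts per gene, of which 11.6% are not whole. A second deposited table holds TPM, which keep no depth. Estimated counts, rounded, were tested with edgeR 4.0.16 in R 4.3.3 (TMM, filterByExpr with a minimum count of 10, quasi-likelihood F test, Benjamini-Hochberg adjustment over all genes tested), with a call at an adjusted p under 0.05. Each comparison used 8 samples, and the difference between the knockout effects used all 16. Because totals ran from 26694045 to 40199637 counts, members had at least 319 counts in every sample.

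The members, the wider list and the markers were chosen with earlier results of these data known. The text names all members, Cbx5 and Cbx3, every called gene of the wider list or, where none was called, the 3 with the smallest p, and for each member the gene with the highest correlation, except for 2 items that are not reported here. CPM used TMM factors over 16 samples. Correlations used log2 CPM (prior count 2) with group means subtracted and 100000 permutations within groups. Coordinates, overlaps and promoters came from GENCODE on GRCm39, a later release than the authors', which held 56017 of the 56748 genes. Shared sequence was found with blastn 2.17.0 (at least 150 nt, 98% identity).

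Alternatives were DESeq2 1.42.0, RLE factors, other count filters, all 16 samples in 1 fit, a replicate block, a robust fit, limma 3.58.1 on log2(TPM + 1) and log2(TPM + 0.1) for genes with at least 1 TPM in 4 samples or unfiltered, the study's added fold threshold, and leaving out each sample. On simulated counts with 200 genes changed 2-fold, edgeR recovered 95.5%, 95.5%, 96.0% and 88.0% of them in the HP1α, HP1γ, WT and difference fits (14930, 14840, 14885 and 15501 genes). In the same order, 3.0%, 5.4%, 5.9% and 4.3% of the calls were false with edgeR, and 14.7%, 17.6%, 20.6% and 14.8% with DESeq2. Smaller changes, such as those of the members, were not simulated. No sample was left out.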

Additional observations from a re-analysis of the deposited data

Results flagged for a closer look

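Of 40 sets of 4 values (10 genes in 4 groups), 3 held a sample far from the other 3 by Dixon's test, for which chance gives about 5%. Tasor was at 28.9 CPM in HP1α KO 3 against 36.6 to 37.7 CPM in the others. Daxx was at 67.8 CPM in HP1γ WT 2 against 75.1 to 76.3 CPM. Pogz was at 79.0 CPM in HP1α WT 3 against 95.9 to 97.0 CPM. In each of these cases the sample apart was the lowest of its group.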

How the results depend on the processing

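In both KO comparisons and for the difference between the knockout effects, no alternative called any of the 10 members. Between WT groups the count of 1 became 2 with DESeq2 (Daxx, adjusted p = 0.0458, and Morc3), 0 with the fold threshold, 0 with the replicate block, 0 in each of the 3 limma fits on TPM, 0 to 3 when 1 sample was left out, and 4 with the KO groups in place of the WT groups, where Adnp (0.19), Daxx (0.35) and Atrx (-0.35) passed. Values of members that were not called changed sign in 18 of 181, 7 of 181, 14 of 191 and 22 of 251 refits (HP1α, HP1γ, WT and difference). The wider list had 12 calls between WT groups, which became 1 with the fold threshold, 0 with the replicate block, 5, 5 and 2 with limma on log2(TPM + 1), on log2(TPM + 0.1) and without a filter, and 21 with the KO groups, and lay between 0 and 14 when 1 sample was left out. It had 0 calls in HP1γ KO, which became 1 (Zfp462) with DESeq2, without a count filter, with all 16 samples in 1 fit and with the replicate block (adjusted p = 0.047), and 0 for the difference, which became 1 with DESeq2. Over all genes, HP1α KO had 0 calls, against 5 with DESeq2, 1 without a filter, 1 with the robust fit and 3 in each limma fit, and 0 to 3 when 1 sample was left out. HP1γ KO had 49, against 252 with DESeq2, 31 with at least 10 counts in every sample, 96 with all 16 samples, 23, 24 and 12 with limma, and 30 to 49 when 1 sample was left out (30 without HP1γ KO 1 and 32 without HP1γ KO 2). The WT comparison had 1896, against 282 with the fold threshold, 577 with the replicate block, 1181, 1175 and 551 with limma and 4921 with the KO groups, and 573 to 2185 when 1 sample was left out, with 573, 1101 and 1040 without HP1α WT 1, 2 and 4 and 613 and 626 without HP1γ WT 1 and 2. The difference had 8, against 5 with the fold threshold, 79 with DESeq2, 14 without a filter, 13 with the replicate block, 5, 3 and 5 with limma, and 7 to 12 when 1 sample was left out. The cause of these shifts was not tested. Deviations of samples with the same replicate number correlated at 0.094 to 0.228 in the HP1α line, 0.00286 to 0.153 in the HP1γ line and -0.204 to -0.0654 between WT groups. The labels do not say whether samples of the same number were paired, and the main fits did not pair them. Of the 4 KO samples, 3 in the HP1α line and 1 in the HP1γ line correlated best with the WT sample of their own number. The block ended the call of Morc3 (0.39, adjusted p = 0.116). With it, 2 members rather than 0 had an unadjusted p under 0.05 in HP1α KO, Atrx (-0.17, unadjusted 0.026, edgeR adjusted p = 0.709) and Tasor (-0.18, unadjusted 0.0441, edgeR adjusted p = 0.714), against 6.89% of all genes with the block and 4.27% without it. Changes of the members' size were not simulated, so that the smallest change detectable at this depth is not known.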

Other observations

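Morc1, which is known from the germ line, was the lowest tested MORC gene, with a mean of 0.427 to 0.775 CPM in the 4 groups and 5 to 34 counts per sample, and it was called in no comparison (log2 fold change 0.30 in HP1α KO, 0.17 in HP1γ KO and 0.53 between the WT groups). Trim28, the corepressor that works with SETDB1, had group means between 210 and 221 CPM. Cbx1, which encodes HP1β, was at 30.7 ± 3.8 CPM in HP1α WT and 23.1 ± 1.16 CPM in HP1γ WT, without overlap (0.41, edgeR adjusted p = 0.0199), and was called neither in HP1α KO (-0.07) nor in HP1γ KO (-0.11).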
